A study of Mus musculus with 11 samples.

Results

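The immunity-related GTPases (IRG) and guanylate-binding proteins (GBP) are 2 families of interferon-inducible GTPases, and 10 of their genes were followed across the 4 treatment groups: the IRG genes Iigp1, Igtp, Irgm1, Irgm2 and Ifi47 and the GBP genes Gbp2, Gbp3, Gbp5, Gbp6 and Gbp7. They were taken by symbol from the deposited table of 24411 genes, and all 10 passed the filter on low values. Bulk RNA was sequenced from tumours of homozygous Th-MYCN mice, in which the tyrosine hydroxylase promoter drives a MYCN transgene and neuroblastomas arise spontaneously. Every animal in the series carried the transgene, and the mice were not treated until a tumour of about 5 mm could be felt. The groups were vehicle given intraperitoneally (n = 3), CBL0137 at 40 mg/kg given intravenously (n = 3), panobinostat at 5 mg/kg given intraperitoneally (n = 2, replicates 1 and 3) and both drugs (n = 3), with the tumour taken 16 h after 1 dose. CBL0137 is a curaxin, a DNA-binding compound that traps the histone chaperone FACT on chromatin, and panobinostat inhibits histone deacetylases. No vehicle group was dosed intravenously, so the route and CBL0137 itself cannot be told apart. Panobinostat replicate 2 is not analysed here.

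IRG and GBP genes are silent or nearly so in most resting mouse tissues and are switched on by interferons through promoter elements known as GAS and ISRE, on which IRF1 is among the factors that act. In mice their products gather on the membranes of vacuoles that hold parasites or bacteria, where they disrupt the membrane and expose the contents to autophagy proteins and to the inflammasome. Within the IRG family, Irgm1, Irgm2 and Igtp (also called Irgm3) are regulators that keep the effectors inactive on the cell's own membranes, and Iigp1 (Irga6) and Ifi47 (Irgd) are effectors that load onto vacuoles.

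Of the 10 genes, 9 were placed in 4 clusters of family genes, and the surroundings of Iigp1 were not read. On GRCm38.p6, whose chromosomes have the mm10 coordinates, Irgm1 (chr11:48865245-48871420) and Ifi47 (chr11:49076587-49096987) flank a row of IRG genes that includes Tgtp1 and Tgtp2. Igtp (chr11:58199556-58207592) and Irgm2 (chr11:58214977-58222783) stand side by side at a second site on the same chromosome. Gbp5 (chr3:142496934-142522344), Gbp7 (chr3:142530336-142550151), Gbp3 (chr3:142560016-142573213) and Gbp2 (chr3:142620663-142638008) follow each other on chromosome 3, and Gbp6 (chr5:105270702-105295871) is in the GBP cluster of chromosome 5. RefSeq promoter windows ran from 250 bases before to 50 bases after each annotated start. They were matched by symbol for 8 of the 10 genes, the others being Iigp1 and Gbp6. In 11 of 19 family windows the first 30 bases after the start were found in a GENCODE M21 transcript of that gene. Distances below are from the annotated start, which may not be the start in use. The windows were searched on both strands for the ISRE core, which is GAAA, any 2 bases and GAAA again, and for the GAS core TTCNNNGAA, which reads the same on either strand.

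An ISRE core was found in 7 of the 8 genes with a window and a GAS core in 4 of the 8, against 3.44% and 8.30% of all 32851 promoter windows. A gene was counted if any of its windows held the core, whereas the percentages count windows. Of 10 other IRG and GBP family genes with a window, 7 held an ISRE core and 4 a GAS core. Of 8 antiviral effector genes with a window, 5 held an ISRE core and 2 a GAS core. Of 10 GTPases of related families that interferon is not known to induce (atlastins, dynamins, mitofusins and Opa1), 0 held either core in a window. Igtp and Irgm2 shared an arrangement in which an ISRE core follows a GAS core after 2 bases. This arrangement was looked for after the sequences had been seen. Of the 32851 windows, 5 held it, or 0.0152%, and they belonged to Igtp, Irgm2, Tgtp1, Tgtp2 and Gm12185, all of them IRG genes on chromosome 11. The 5 stretches are shown to compare that arrangement, from 10 bases before the GAS core to 10 bases after the ISRE core, with both cores in capitals.
Igtp, + strand, chr11:58199501-58199541: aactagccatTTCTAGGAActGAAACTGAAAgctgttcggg
Irgm2, + strand, chr11:58214892-58214932: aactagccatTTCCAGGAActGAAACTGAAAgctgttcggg
Tgtp1, − strand, chr11:48992304-48992344: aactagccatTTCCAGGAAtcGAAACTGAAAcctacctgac
Tgtp2, − strand, chr11:49064263-49064303: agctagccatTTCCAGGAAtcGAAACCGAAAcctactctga
Gm12185, − strand, chr11:48927238-48927278: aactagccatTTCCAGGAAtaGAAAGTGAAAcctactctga

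The other windows differed in order and strand. Irgm1 held 2 overlapping ISRE cores that begin 30 and 24 bases before the start, and Gbp3 held 2 overlapping ISRE cores on the other strand at 45 and 39 bases. Gbp2 had a single ISRE core on the other strand at 59 bases. Gbp7 had GAS cores at 106 and 87 bases and an ISRE core on the other strand at 53 bases. Gbp5 had GAS cores at 245 and 52 bases and an ISRE core on the other strand at 165 bases. The stretches of Irgm1, Gbp3, Gbp2 and Gbp7 are given for their proximal cores, again in capitals, and no match was found in the window of Ifi47.
Irgm1, − strand, chr11:48871425-48871460: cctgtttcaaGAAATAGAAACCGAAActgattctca
Gbp3, + strand, chr3:142559989-142560024: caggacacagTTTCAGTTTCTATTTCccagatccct
Gbp2, + strand, chr3:142620594-142620623: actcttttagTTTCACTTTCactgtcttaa
Gbp7, + strand, chr3:142530220-142530302: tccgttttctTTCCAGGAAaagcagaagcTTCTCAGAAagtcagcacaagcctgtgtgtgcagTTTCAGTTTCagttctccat

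**Figure D1:**
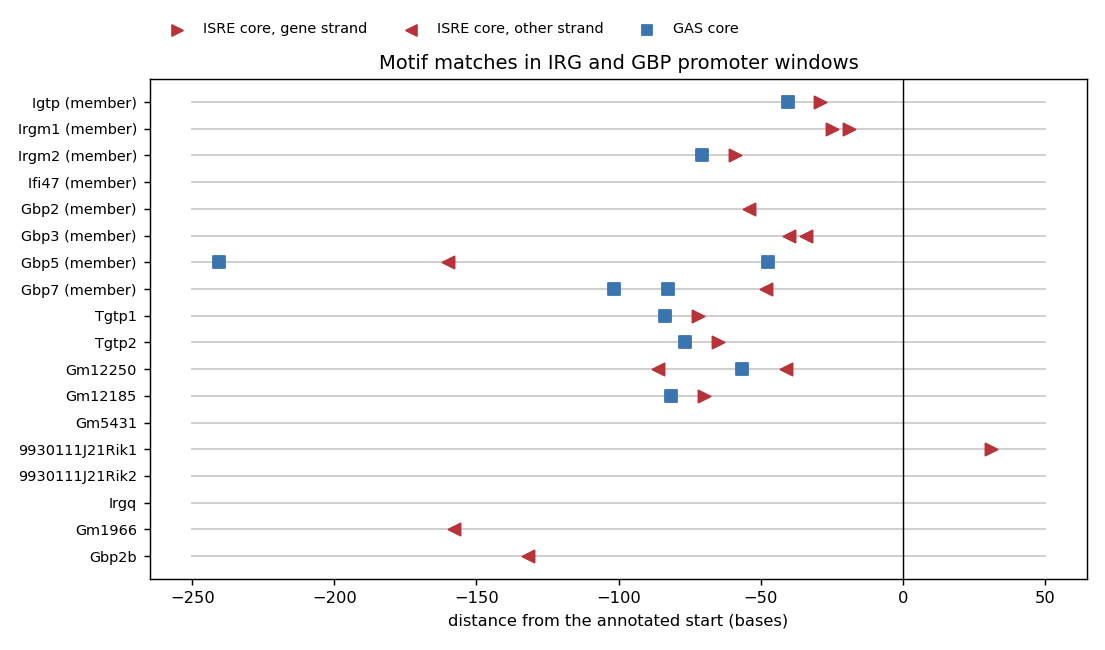
Motif matches along the first promoter window of 8 of the 10 genes followed (marked as members) and of 10 other family genes, by distance in bases from the annotated start. Triangles are ISRE cores, pointing right on the gene's own strand and left on the other, and squares are GAS cores. Igtp, Irgm2, Tgtp1, Tgtp2 and Gm12185 show the same square and triangle side by side, and Ifi47 shows none.

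Values are TPM, the transcript abundances the authors scaled to a total of 1000000 in each library, so depth is unknown and levels are per length. A few facts about the libraries bear on what follows. Catecholamine synthesis genes that mark neuroblastoma were present in vehicle tumours, with Th at 137 ± 39.7 TPM and Ddc at 278 ± 29.9 TPM (SD, n = 3 each). Some libraries carried RNA of other tissues: kidney markers summed to 410 TPM in vehicle replicate 2, skeletal muscle markers to 8050 TPM in panobinostat replicate 3, and adrenal cortex markers to 5240 TPM in combination replicate 2. B cell markers were highest in CBL0137 replicate 3, at 156 TPM, and in combination replicate 1, at 64.4 TPM. Each library had 12856 to 14747 genes at 1 TPM or more. The age, sex and strain of the mice are not given in the sources used here. The labels list the libraries as separate samples but do not tie each to its own animal, so the spread behind a p-value is that between these samples.

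In vehicle tumours the 10 genes were close to silent. Together they summed to 16 ± 1.3 TPM (SD, n = 3), which is 0.0016% of the library, and their means ran from 0.407 TPM for Gbp5 to 3.73 TPM for Irgm1. After CBL0137 the sum was 397, 400 and 1150 TPM in replicates 1, 2 and 3. After panobinostat it was 85 and 97.1 TPM. After both drugs it was 3540, 3160 and 1610 TPM, a mean of 0.277% of the library. No library of one group overlapped a library of another in this sum, and the order was vehicle, panobinostat, CBL0137 and combination. In bulk tumour RNA a gain of cells that express these genes and a gain of RNA per cell cannot be told apart.

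The 3 IRG regulators had the highest and some of the lowest starting levels. Irgm1 was at 2.93, 4.49 and 3.77 TPM in vehicle, 60.6, 56.4 and 155 TPM after CBL0137, 11.7 and 17.4 TPM after panobinostat, and 411, 351 and 220.2 TPM after both. Irgm2 was at 0.95, 0.72 and 0.73 TPM in vehicle, 18.9, 17.2 and 54.5 TPM after CBL0137, 4.10 and 6.03 TPM after panobinostat, and 203, 176 and 86.9 TPM after both. Igtp was at 0.51, 1.36 and 0.81 TPM in vehicle, 39.4, 44.8 and 131 TPM after CBL0137, 7.05 and 7.48 TPM after panobinostat, and 392, 303 and 166 TPM after both. For each of the 3 genes every treated library was above every vehicle library and the 4 groups did not overlap. The share of all tested genes with the 4 groups apart was not computed. By pairs, panobinostat lay wholly above vehicle for 37.1% of tested genes and CBL0137 wholly above panobinostat for 22.2%. The combination lay wholly above CBL0137 for 36.9%. These shares also stand beside the other genes below. Within the groups, CBL0137 replicate 3 was the high library and combination replicate 3 the low one.

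Both IRG effectors behaved alike in order and differed in size. Iigp1, which oligomerises on vacuole membranes, was at 2.18, 1.11 and 0.61 TPM in vehicle, 75.8, 83.3 and 225 TPM after CBL0137, 7.06 and 10.6 TPM after panobinostat, and 784, 718 and 322 TPM after both. It was the highest of the 10 genes in every CBL0137 and combination library. By TPM it ranked between 176 and 386 among all genes in the combination libraries, whereas the 10 genes ranked between 10231 and 15349 in vehicle. Ifi47 was at 1.32, 1.55 and 1.80 TPM in vehicle, 40.3, 42.9 and 137 TPM after CBL0137, 9.16 and 10.9 TPM after panobinostat, and 374, 342 and 179 TPM after both. Its groups did not overlap either.

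Of the GBP genes, Gbp2 and Gbp5 encode proteins anchored to membranes by a lipid at their C-terminal end, and Gbp5 is known to promote inflammasome activity. Gbp2 was at 2.36, 1.94 and 2.76 TPM in vehicle, 38.9, 41.0 and 114 TPM after CBL0137, 14.9 and 16.4 TPM after panobinostat, and 398, 371 and 194 TPM after both. Gbp5 was at 0.28, 0.39 and 0.55 TPM in vehicle, 16.2, 12.4 and 57.2 TPM after CBL0137, 4.21 and 3.37 TPM after panobinostat, and 199.9, 163 and 89.8 TPM after both. Gbp5 had the lowest mean of the 10 genes in all 4 groups, and Gbp2 had the highest panobinostat mean, at 15.6 TPM. Gbp2 stood only 1 place behind Irgm1 after both drugs, with means of 321 and 327 TPM that differed by less than the spread between libraries.

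Gbp3 and Gbp7 are neighbours of these on chromosome 3, and Gbp7 is known in mice for delivering antimicrobial proteins to vacuoles. Gbp3 was at 1.69, 3.09 and 2.41 TPM in vehicle, 47.5, 43.7 and 92.2 TPM after CBL0137, 11.2 and 10.7 TPM after panobinostat, and 255, 292 and 133 TPM after both. Gbp7 was at 1.78, 1.85 and 1.78 TPM in vehicle, 33.0, 29.0 and 88.4 TPM after CBL0137, 10.4 and 9.99 TPM after panobinostat, and 231, 213 and 117 TPM after both. Gbp6, of the chromosome 5 cluster, was at 0.85, 0.92 and 0.57 TPM in vehicle, 26.3, 29.1 and 93.3 TPM after CBL0137, 5.09 and 4.18 TPM after panobinostat, and 289.5, 234 and 106 TPM after both. None of the 3 had overlapping groups. Gbp6 is the least certain of the 10 genes, because 70.7% of the 50-base windows of its GENCODE M21 transcripts occur in transcripts of another gene, against 0.31% (Irgm1) to 12.7% (Gbp7) for the other 9. Gbp10, which shares 73.3% of its windows with Gbp6, was listed at 0.07, 0 and 0 TPM in vehicle and was at 7.93, 11.8 and 36.1 TPM after CBL0137, 0.22 and 0.42 TPM after panobinostat, and 123, 61.7 and 25.7 TPM after both. The gene that shares most with Gbp6 is Gm43302, whose transcripts hold 65% of the Gbp6 windows. How reads were divided between Gbp6, Gm43302 and Gbp10 was not tested. Gbp10 is named here because of the windows it shares with Gbp6, after its values were seen.

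**Figure D2:**
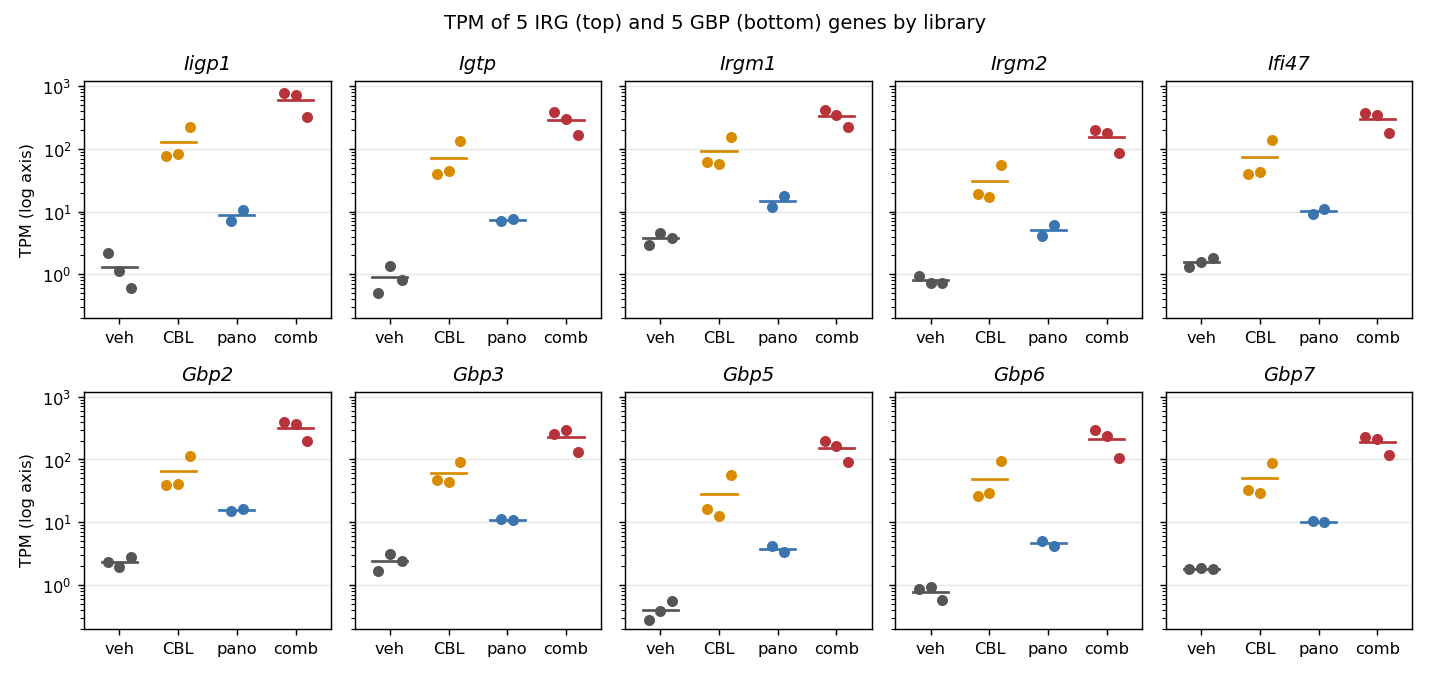
TPM of each of the 10 genes in every library on a log axis, with a line at each group mean (veh, vehicle; CBL, CBL0137; pano, panobinostat; comb, combination). For every gene the vehicle libraries lie lowest, panobinostat next, CBL0137 above it and the combination highest, with no overlap between groups. The share of all tested genes with this order was not computed. Iigp1 reaches the highest level, 784 TPM, and Gbp5 begins lowest, at 0.28 TPM.

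The first comparison concerns the curaxin alone. All 10 rose, with log2 changes on the log2(TPM + 1) scale from 3.92 ± 0.42 (SE) for Irgm2 to 5.68 ± 0.46 for Iigp1 and a median of 4.13, where the median of all tested genes was -0.01. Limma adjusted p ran from 0.000154 to 0.00115 over 15497 tested genes, of which 4.99% rose and 1.13% fell. Iigp1 was 6th and Irgm2 54th of all tested genes by the size of the rise. All 3 CBL0137 libraries exceeded all vehicle libraries for 10 of the 10 genes and for 18.6% of tested genes. CBL0137 replicate 3 was 2.02 (Gbp3) to 3.99 times (Gbp5) the mean of replicates 1 and 2, and without it the 10 genes were still called with a median of 3.73.

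The deacetylase inhibitor alone was compared with vehicle in the same way. All 10 genes rose here too, by 1.66 ± 0.53 (Gbp6) to 2.32 ± 0.44 (Gbp2), with a median of 1.92 and limma adjusted p from 0.00275 to 0.0287. Of all tested genes 25.5% rose and 16.9% fell in this comparison, with a median of 0.10, so a rise was a common outcome. Gbp2 was 708th and Gbp6 1661st by the size of the rise. Both panobinostat libraries exceeded all vehicle libraries for 10 of the 10 genes and for 37.1% of tested genes. The calls of several genes were marginal: 5 of the 10 remained without panobinostat replicate 3, 4 with a pseudocount of 5 and 4 after quantile normalization, which also moved the median of all genes to -0.18. The muscle RNA of panobinostat replicate 3 lies beside this value, and its part in the result was not tested.

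After both drugs all 10 genes rose by 6.01 to 8.0 on the log2 scale against vehicle, lowest for Gbp7 and Gbp3 (6.01 ± 0.38 and 6.01 ± 0.34) and highest for Iigp1 (8.0 ± 0.46). The median was 6.60, limma adjusted p ran from 3.23e-06 to 6.52e-06, and 35.9% of tested genes rose and 30.1% fell. The ratio of mean TPM to vehicle ran from 87.8 for Irgm1, the gene with the highest starting level, to 468 for Iigp1. Igtp, Ifi47 and Gbp6 followed Iigp1, at 7.19, 6.80 and 6.77. Irgm2, Gbp5, Gbp2 and Irgm1 were at 6.35, 6.68, 6.53 and 6.08. The 3 comparisons share the vehicle libraries.

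**Figure D3:**
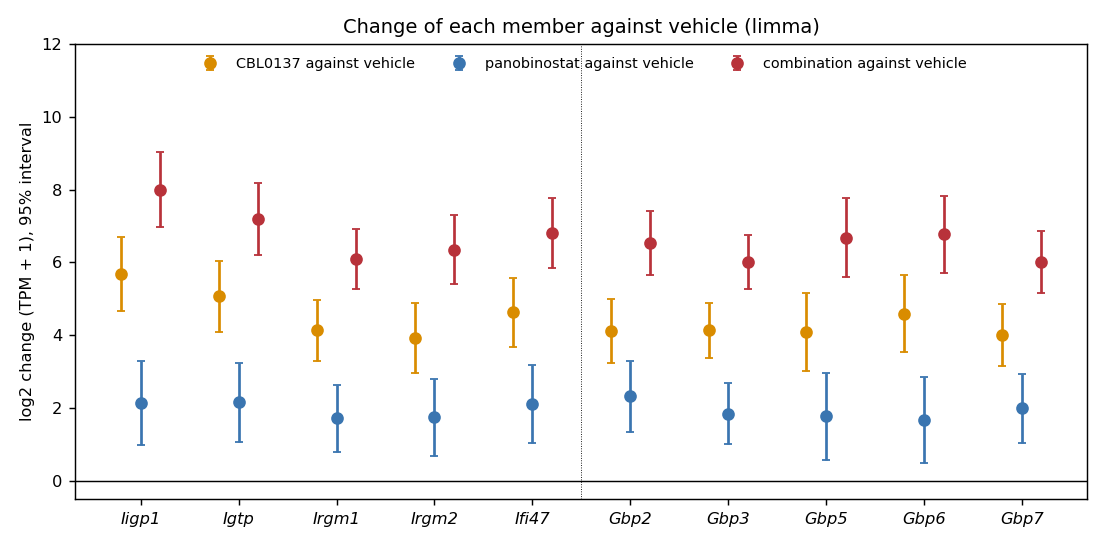
Log2 change of each of the 10 genes against vehicle after CBL0137, panobinostat and both, on the log2(TPM + 1) scale from 1 limma fit, with 95% intervals. IRG genes are left of the dotted line and GBP genes right of it. All points lie above 0, with Iigp1 highest after CBL0137 (5.68) and after both (8.0).

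Next, the combination was set against each single drug. Against CBL0137 all 10 genes were higher after both drugs, by 1.88 ± 0.34 (Gbp3) to 2.60 ± 0.48 (Gbp5) with a median of 2.18 and limma adjusted p from 0.000762 to 0.00315. Of all tested genes 33.2% rose in this comparison, with a median of 0.12. All combination libraries exceeded all CBL0137 libraries for 10 of the 10 genes and for 36.9% of tested genes. Against panobinostat the 10 genes were higher by 4.01 ± 0.42 (Gbp7) to 5.87 ± 0.52 (Iigp1), with a median of 4.66, limma adjusted p from 0.000319 to 0.000949 and 6.24% of tested genes rising. Combination replicate 3 was 0.404 (Gbp6) to 0.578 times (Irgm1) the mean of replicates 1 and 2, and without it the median against CBL0137 was 2.56.

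The single drugs were also compared directly. All 10 genes were higher after CBL0137 than after panobinostat, by 1.80 ± 0.44 (Gbp2) to 3.55 ± 0.52 (Iigp1) with a median of 2.37 and limma adjusted p from 0.00801 to 0.023, where 6.81% of tested genes rose. All CBL0137 libraries exceeded both panobinostat libraries for 10 of the 10 genes and for 22.2% of tested genes. These calls depend on how the spread is estimated. With only these 2 groups in the fit limma called 0 of the 10 genes, with adjusted p from 0.0526 to 0.0695. At an unadjusted p under 0.05 there were 10 of 10. Among all genes that passed the filter in these libraries, limma called 8. Without panobinostat replicate 3 the median of the 10 genes was 2.52 (1.86 to 3.82). Without replicate 1 it was 2.36 (1.73 to 3.28), and fewer of the 10 were called in both cases.

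Whether both drugs together gave more than the sum of the single changes was tested as an interaction on the log2 scale. Iigp1 changed by 5.68 after CBL0137 and 2.13 after panobinostat, a sum of 7.81, and by 8.0 after both. Gbp7 had a sum of 6.0 and a combination change of 6.01, and Igtp a sum of 7.22 and a combination change of 7.19. The interaction was furthest from 0 for Gbp5, at 0.83 (95% interval -0.78 to 2.44), and Irgm2, at 0.70 (-0.72 to 2.12). Limma called 0 of the 10 genes, with 0 at an unadjusted p under 0.05 and adjusted p from 0.699 to 0.998. Over all 15497 genes it called 0 (0%), with 1631 at an unadjusted p under 0.05. The standard errors of the 10 interactions were 0.50 to 0.72, and each 95% interval included 0. A call that misses the threshold does not show that the changes add up exactly.

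On the linear TPM scale the levels after both drugs were above the sum of the single-drug levels. For 10 of the 10 genes the lowest combination library exceeded the highest CBL0137 library plus the highest panobinostat library, which was so for 2.96% of tested genes. For Gbp5 the lowest combination library was at 89.8 TPM, and the highest single-drug libraries were at 57.2 and 4.21 TPM. For Irgm1 the lowest combination library was at 220.2 TPM, and the highest single-drug libraries were at 155 and 17.4 TPM. Multiplying the single-drug ratios of mean TPM gave a level above the combination mean for all 10 genes. That product was 871 TPM for Iigp1 and 354 TPM for Irgm1, where the combination means were 608 and 327 TPM. The difference was not tested on this scale. The sign of the log2 interaction depended on the pseudocount for most genes, running from -0.85 (Igtp) to 0.04 (Irgm1) with a pseudocount of 0.1 and from 0.69 to 1.68 with a pseudocount of 5, and no gene was called under either.

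**Figure D4:**
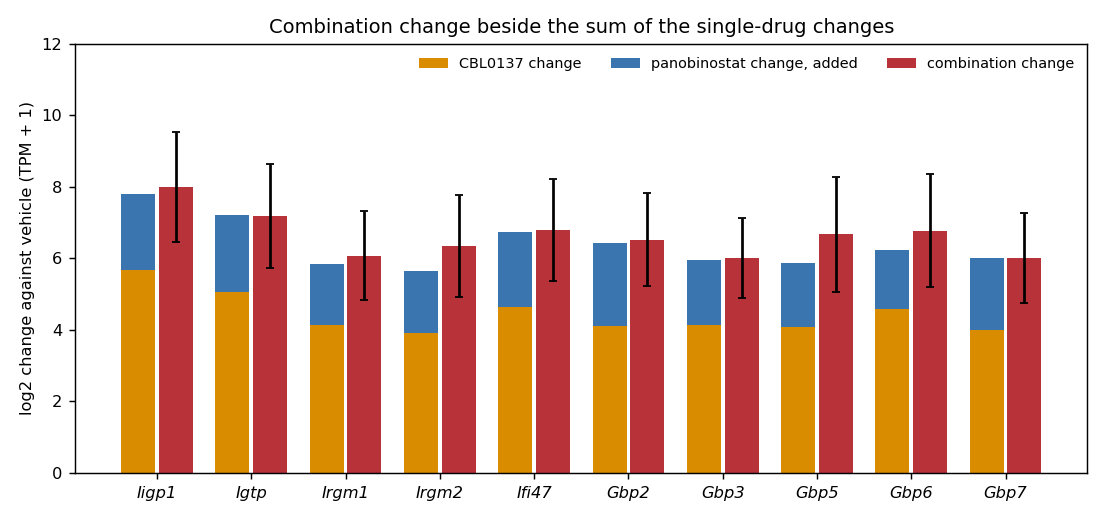
For each of the 10 genes, the CBL0137 and panobinostat log2 changes stacked on each other (left bar) beside the combination change (right bar), all against vehicle on the log2(TPM + 1) scale. The line on the right bar is the 95% interval of the difference between both bars, and it includes the top of the left bar for all 10 genes. The bars of Gbp7 stand at 6.0 and 6.01.

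The make-up of the summed signal was read as the share of each gene. Iigp1 gave 19.8 ± 0.887% of the summed TPM of the 10 genes after CBL0137 and 21.6 ± 1.46% after both drugs (SD, n = 3 each), but 8.31% and 11% in the panobinostat libraries. Gbp2 gave 17.5% and 16.9% in the panobinostat libraries, 9.99 ± 0.235% after CBL0137 and 11.7 ± 0.398% after both. Irgm1 gave 23.1 ± 3.09% of the sum in vehicle and 12.1 ± 1.35% after both. The ranges of Iigp1 and Gbp2 in the panobinostat libraries did not overlap those in the CBL0137 or combination libraries. The same was so for Igtp, Gbp6 and Gbp7. In vehicle replicates 1, 2 and 3 Iigp1 gave 14.7, 6.37 and 3.86% and Gbp2 15.9, 11.1 and 17.5%. For all of these genes the vehicle and panobinostat ranges overlapped. These shares were not tested. The 5 IRG genes made up 59.2 to 61.2% of the sum in the CBL0137 and combination libraries and 46.0 to 54.0% in the others.

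Across libraries, Pearson's r between log2 levels of any 2 of the 10 genes was 0.986 to 0.999 over the 11 libraries (45 pairs), which share the large differences between groups. After each group's mean was subtracted, r was 0.718 to 0.986 with a median of 0.926. Set against vehicle on the log2 scale, the median gene of the 10 stood at 3.79, 3.70 and 5.24 in CBL0137 replicates 1, 2 and 3 and at 7.03, 6.84 and 5.89 in combination replicates 1, 2 and 3. The panobinostat libraries stood at 1.88 and 1.97, the second being the library with muscle RNA. Vehicle replicate 2, with kidney RNA, stood at 0.01.

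Tested genes whose mean reached 5 TPM in any group (12693) were ranked by likeness to the mean profile of the 10 genes, and the nearest 7 were Phf11d, Ddx60, Gbp2b, Oasl1, Ddx58, Phf11b and Dtx3l. Their r over the 11 libraries was 0.9978 to 0.9991. Ddx58 encodes the RNA sensor RIG-I, Oasl1 an OAS-like protein that interferon induces, and Gbp2b is a further GBP gene. The transcription factors Irf7 and Irf1 ranked 30th and 79th with r = 0.9939 and 0.9821. Ifnb1, which encodes interferon beta, ranked 210th with r = 0.9396. The macrophage markers Adgre1 and C1qa ranked 825th and 997th with r = 0.8441 and 0.8283. Other macrophage markers were not read in this ranking.

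Other genes of the IRG and GBP families rose in the same comparisons. Of 21 tested, 16 rose after CBL0137 (median 2.54), 9 after panobinostat (median 1.32) and 20 after both (median 4.79), and 0 fell. Of all tested genes 4.99%, 25.5% and 35.9% rose in the same order, and 1.13%, 16.9% and 30.1% fell. These shares also stand beside the list counts against vehicle that follow. Tgtp2 was at 0.60, 0.74 and 1.28 TPM in vehicle, 42.4, 38.7 and 153 TPM after CBL0137, 3.56 and 3.67 TPM after panobinostat, and 393, 377 and 192 TPM after both. Tgtp1 and Tgtp2 encode nearly the same IRG effector (Irgb6) and share 79.4% of the 50-base windows of Tgtp1, so their values are uncertain singly. Gbp2b was at 45, 36.5 and 128 TPM after CBL0137 and rose by 7.08 ± 0.42 after both (limma adjusted p = 3.64e-06). The giant GTPase Gvin1 rose by 4.94 ± 0.43 after CBL0137 and 6.43 ± 0.43 after both, but it shares 98.3% of its windows with Gm4070. The gene that was not called after both drugs was Irgq, a divergent family member, at 10.4 ± 1.80 TPM in vehicle and 10 ± 2.06 TPM after both (SD, n = 3 each, adjusted p = 0.853).

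Other GTPases that remodel membranes were read beside them. Of the 10 atlastins, dynamins, mitofusins and Opa1, limma called 0 after CBL0137 (2 at an unadjusted p under 0.05), with a median of -0.14. After panobinostat 3 rose and 4 fell, and after both drugs 4 rose and 5 fell. Of all tested genes 25.5% rose and 16.9% fell after panobinostat, and 35.9% and 30.1% after both. Atl1, an endoplasmic reticulum atlastin, fell by 1.09 ± 0.15 after panobinostat and by 1.51 ± 0.14 after both (adjusted p = 0.000811 and 1.39e-05), and Dnm2, the dynamin of endocytosis, rose by 0.66 ± 0.15 and 1.05 ± 0.14. Their summed TPM stayed between 297 and 369 in all 11 libraries.

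Genes around the clusters were also read. Within 200 kb of the 4 clusters 21 other genes were tested, of which 3 rose and 0 fell after CBL0137, with a median of -0.08. After both drugs 7 of the 21 rose and 9 fell, with a median of -0.03. Over all tested genes 4.99% rose and 1.13% fell after CBL0137, and 35.9% and 30.1% after both. The furthest rise among them was that of Psme2b, a copy of the proteasome activator gene Psme2 that lies inside the cluster of Irgm1 and Ifi47, at 3.44 ± 0.36 after both (adjusted p = 2.64e-05). Olfr56, beside Ifi47, rose by 2.62 ± 0.24, and 2.54% of the Ifi47 windows occur in Olfr56 transcripts. Zfp62 and Mrpl22, at the 2 chromosome 11 sites, fell by 0.54 ± 0.09 and 0.33 ± 0.13. These genes are named after their values were seen.

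The genes of interferon gamma signalling, which is the classic inducer of the family, came next. Ifng itself was listed at 0 in all vehicle and panobinostat libraries, at 0, 0.09 and 0.73 TPM after CBL0137 and at 1.95, 0.53 and 0 TPM after both, and was too low to test. Of the other 13 genes, 7 rose after CBL0137, 10 after panobinostat and 12 after both, and 0 fell. Irf1 was at 5.72, 5.05 and 4.97 TPM in vehicle, 26.9, 27.5 and 77.0 TPM after CBL0137, 21.8 and 22.2 TPM after panobinostat, and 233, 184 and 105 TPM after both. The lowest CBL0137 library of Irf1 lay just above the panobinostat ones, and CBL0137 and panobinostat differed by 0.78 ± 0.43 (adjusted p = 0.22).

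The receptor and kinase genes were read next. Ifngr1, the ligand-binding receptor chain, rose by 1.66 ± 0.25 after panobinostat (adjusted p = 0.00108) and by 2.08 ± 0.23 after both, and was at 0.50 ± 0.23 after CBL0137 (adjusted p = 0.206). The difference between the single drugs passed, at -1.16 ± 0.25 for CBL0137 against panobinostat (adjusted p = 0.0169). Ifngr2 and Jak1 rose after panobinostat by 0.75 and 0.63 and after both by 1.33 and 1.47, and were at 0.36 and 0.41 after CBL0137 (adjusted p = 0.192 and 0.211). For these 2 genes the difference between the single drugs did not pass, at -0.39 ± 0.17 and -0.22 ± 0.21 (adjusted p = 0.135 and 0.474). Jak2 rose after both by 1.86. Among the regulators, the feedback inhibitors Socs1 and Socs3 rose after both by 3.18 and 2.94, and the phosphatase Ptpn6 by 3.84, while Ptpn2 was at 0.04 ± 0.15 (adjusted p = 0.825). Nlrc5 and Ciita, the class I and class II transactivators of MHC genes, rose by 4.2 and 2.82, and Irf8 by 3.36.

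Type I interferon genes were present too. Ifnb1 was listed at 0 in every vehicle and panobinostat library, at 4.23, 2.49 and 8.65 TPM after CBL0137 and at 13.7, 25.7 and 3.99 TPM after both. It rose after CBL0137 (adjusted p = 0.0272) and after both (0.000215), and the difference between these 2 groups did not pass (adjusted p = 0.0926). Of the 9 type I signalling genes 6 rose after CBL0137, 6 after panobinostat and 9 after both. Irf7 rose by 5.53 ± 0.41, 1.77 ± 0.46 and 7.55 ± 0.41 in turn, and Usp18, which restrains the type I receptor, by 6.50 ± 0.36, 1.60 ± 0.41 and 7.51 ± 0.36. Of 11 antiviral effectors 11, 7 and 11 rose, with medians of 4.71, 1.36 and 6.94, where the 10 GTPase genes had 4.13, 1.92 and 6.60. Isg15, a ubiquitin-like modifier, rose by 5.56, 1.89 and 7.75.

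The cell machinery that IRG and GBP proteins work with was read next. Of 14 genes of LC3 and GABARAP conjugation, which direct IRG proteins to vacuoles, 1 rose after CBL0137. After panobinostat 5 rose and 1 fell, and after both 8 rose and 1 fell. Over all tested genes 4.99%, 25.5% and 35.9% rose in turn, and 1.13%, 16.9% and 30.1% fell. Gabarap rose in all 3, from 112 ± 2.22 TPM in vehicle to 325 ± 57.1 TPM after both (SD, n = 3 each), by 0.67, 0.95 and 1.51 on the log2 scale. Atg7 and Map1lc3b rose after both by 1.14 and 1.04, and the protease Atg4b fell by 0.56. Of 7 prenylation genes, which modify the C-terminal ends of some GBP proteins, limma called 0 after CBL0137 and 0 after panobinostat (1 each at an unadjusted p under 0.05), and after both 3 rose and 3 fell, the furthest Fntb, which fell by 0.67 ± 0.15.

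Partners at the vacuole and in the inflammasome followed. Of 8 ubiquitin and adaptor genes 3 rose after CBL0137, 4 rose and 1 fell after panobinostat, and 5 rose and 2 fell after both. Beside these and the next counts, 4.99%, 25.5% and 35.9% of all tested genes rose in turn, and 1.13%, 16.9% and 30.1% fell. Lgals3 and Lgals8, galectins that mark broken vacuoles, rose after both by 3.79 ± 0.26 and 3.34 ± 0.25, and Trim21, a ubiquitin ligase, by 4.41 ± 0.37. Of 14 inflammasome and pyroptosis genes 9 rose after CBL0137, 13 after panobinostat and 13 after both. Casp1, which cleaves interleukin-1 beta, rose by 2.56, 2.56 and 4.70, and Il18 by 1.90, 2.70 and 3.94. Dfna5 (gasdermin E) was the gene that fell after both, by 0.70 ± 0.19. Mefv, Pycard and Naip2 were lower after CBL0137 than after panobinostat, at -0.90, -1.19 and -0.95, and 0 of the 14 were higher (3 fell). In that comparison 6.81% of all 15497 tested genes rose and 2935 were called in either direction, so few higher genes was a common outcome.

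Markers of other cells moved with treatment as well, and their part in the results was not tested. The 12 macrophage markers summed to 823 to 1010 TPM in vehicle, 1750 to 3530 TPM after CBL0137, 4380 to 5510 TPM after panobinostat and 7070 to 10500 TPM after both, and Ly6c2 was listed at 0 in vehicle replicate 3. As ratios of group means to vehicle these are 2.53, 5.24 and 8.89, where the sum of the 10 GTPase genes had 40.4, 5.68 and 173. Of the 12 markers 8 rose after CBL0137, 12 after panobinostat and 12 after both. Between the single drugs 9 of the 12 were lower after CBL0137 than after panobinostat, with a median of -1.19. The 10 GTPase genes were higher in that same comparison, with a median of 2.37. Over all 15497 genes it called 2935 in either direction, of which 1056 rose. Both sets were higher in the combination against CBL0137, with medians of 2.11 for the 12 markers and 2.18 for the 10 genes. There all 8 endothelial and all 8 fibroblast markers rose as well, with medians of 2.02 and 2.29, and 33.2% of tested genes. Fcgr1 and Ly6c2, both of which interferon is known to raise, were the markers that rose furthest after CBL0137, by 3.27 and 4.98.

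Among the stromal lists, fibroblast markers summed to 228 to 404 TPM in vehicle, 502 to 1320 after CBL0137, 2830 to 3170 after panobinostat and 3390 to 5060 after both. Limma called 0 of these 8 after CBL0137 (5 at an unadjusted p under 0.05) and 8 after panobinostat and after both. Endothelial markers summed to 46.0 to 71.5, 98.3 to 227, 235 to 262 and 432 to 807 TPM in the same order, and 3, 8 and 8 of 8 rose. Neutrophil markers summed to 2.21 to 17.2, 31.0 to 72.5, 179 to 346 and 420 to 596 TPM. T and NK cell markers were low, at 5.24 to 7.72, 11.9 to 80.4, 17.1 to 17.8 and 32.4 to 107 TPM, with Ncr1 listed at 0 in every vehicle library and 0, 1 and 6 of 10 tested genes rising (4 at an unadjusted p under 0.05 after CBL0137). B cell markers summed to 1.70 to 3.05, 5.33 to 156, 9.68 to 13.4 and 20.6 to 64.4 TPM. CBL0137 replicate 3 was the highest of its group for the macrophage, T and NK, B cell, neutrophil, fibroblast and endothelial sums as well as for the 10 GTPase genes. With CBL0137 replicate 3, vehicle replicate 2 and combination replicate 2 left out together, an alternative added after seeing the data, all 10 genes were called in the 6 comparisons between groups, with medians of 3.86, 2.00 and 6.44 against vehicle. That alternative kept panobinostat replicate 3, CBL0137 replicate 2 and combination replicate 1, whose muscle markers summed to 8050, 520 and 616 TPM.

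**Figure D5:**
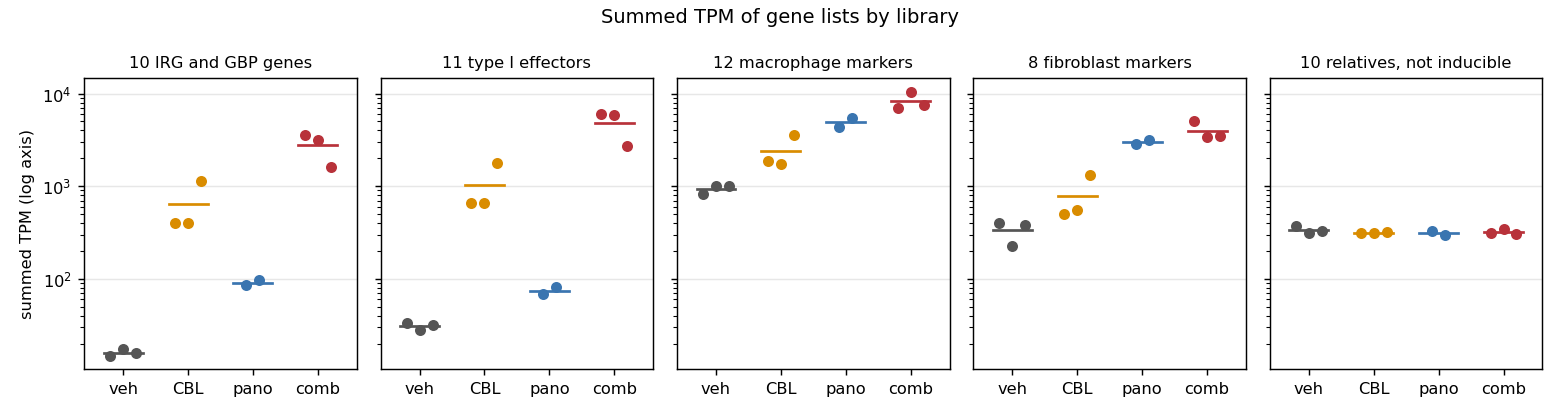
Summed TPM per library on a log axis for the 10 IRG and GBP genes and 4 other lists, with a line at each group mean (veh, vehicle; CBL, CBL0137; pano, panobinostat; comb, combination). The 10 genes and the 11 type I effectors are higher after CBL0137 than after panobinostat. The 12 macrophage and 8 fibroblast markers have the reverse order, and the 10 related GTPases stay between 297 and 369 TPM.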

How the data were processed

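The 11 samples of tumour RNA were sequenced after ribosomal RNA depletion as stranded libraries. Per the submitters' processing notes, STAR, RSEM and SAMtools were run by the authors on mm10. Versions, settings and annotation are not given in the sources used here. The authors deposited TPM for 24411 genes, checked here to total 1000000 per library. TPM carry no counts, so depth, intervals from counting and detection limits are unknown. Of these, 27 were named here by transcript identifier.

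The tests covered 15497 genes that reached 1 TPM in 2 or more libraries, and 8914 were left out. Limma 3.58.1 in R 4.3.3 fitted 4 group means to log2(TPM + 1) of all 11 libraries (7 residual degrees of freedom, eBayes with its trend option, 2-sided, Benjamini-Hochberg adjustment, threshold 0.05). Fold changes on this scale understate those of low genes. An exact permutation test of 3 libraries against 3 cannot go below 0.1. The fit was tested on simulated data. Pearson's r, motif matches and 50-base windows shared between GENCODE M21 transcripts are descriptions, computed in Python 3.11.15 with pandas 2.3.3 and drawn with matplotlib 3.10.9. Promoters are from RefSeq (GRCm38.p6).

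The genes and lists were chosen with earlier results of these data known. Named were the 10 genes, up to 4 genes per list with the lowest adjusted p, the interferon gamma list and the 8 nearest profiles. A few items that this rule or the lists name are not reported here. Other genes are marked where named. Gbp1, BC057170 and Rnf213 of the lists were not found in the table. Alternatives were other pseudocounts, filters, scalings and fits, a replicate block and leaving out libraries.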

Additional observations from a re-analysis of the deposited data

How the results depend on the processing

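No change of the 10 genes reversed under any alternative in the 6 comparisons between groups. All 10 remained called against vehicle after CBL0137 and after both drugs, and in the combination against either drug, under all 22 alternatives. After panobinostat the count of 10 was 4 with a pseudocount of 5, 4 after quantile normalization and 5 to 10 when a library was left out, lowest without panobinostat replicate 3. For CBL0137 against panobinostat it was 0 with only the groups compared in the fit and 0 to 10 when a library was left out, with 0 without panobinostat replicate 3 and 6 without replicate 1. A group left with 1 library is assumed to vary like the others. The interaction stayed at 0 calls. Quantile normalization moved the median of all genes from 0.10 to -0.18 for panobinostat and from 0.08 to -0.26 for the combination against vehicle. The causes were not tested.

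Replicate numbers were not used to pair the samples: of 15 same-number pairs, 2 had a correlation of deviations over 0.1 (range -0.26 to 0.19). With deviations from means of 2 or 3 libraries, this cannot show that same-number samples share no batch. With the number as a replicate block 8 of the 10 genes were called after panobinostat and 9 for CBL0137 against panobinostat, with Gbp5, Gbp6 and Gbp2 the ones lost, and the block changed no other call of the 10. Over all genes, counts moved by over 1.5 times for CBL0137 against vehicle (949, from 324 to 1333), panobinostat against vehicle (6572, from 4049), the combination against panobinostat (1634, from 345 with the block to 3366), CBL0137 against panobinostat (2935, from 0 to 4664) and the interaction (0, up to 44). Depth is unknown in TPM, so levels near 0, such as those of Ifng, are not limits of detection.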
